A study of Mus musculus with 8 samples.

Results

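Transcript levels of 8 genes known as markers of pancreatic duct or mesothelium, Cftr, Krt7, Krt8, Krt18, Krt19, Spp1, Msln and Muc1, were followed in flow-sorted beta cells. They are 8 of the 55487 gene identifiers in the deposited tables. There were 4 Chd4KO libraries, from mice with Chd4 deleted in beta cells, and 4 Control libraries, from tamoxifen-treated mice labelled only as Control. In their series text the submitters describe tamoxifen-treated animals of both kinds, whose islets were dispersed and flow-sorted. Each library carries an animal number of its own, and all Control numbers come before all Chd4KO numbers, so age, litter or collection day cannot be told apart from genotype. The Cre driver, the allele and the age are not given in the sources used here. The 8 genes were selected on their role as markers and on the TPM difference between Chd4KO and Control, with Cftr and Msln known to be lower. Their differences are therefore given as a description, with no p-value, and any call counted among them restates that choice. Values are TPM, a transcript abundance corrected for gene length and scaled to the same total in each library, so that levels of different genes can be set side by side. A change is the difference in log2(TPM + 1), Chd4KO minus Control, with the standard error of a limma fit across all tested genes.

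The ducts of the pancreas are tubes of simple epithelium that carry acinar enzymes to the gut and add bicarbonate-rich fluid, a secretion that depends on the chloride channel CFTR. Simple epithelia build their intermediate filaments from pairs of a type II keratin (Krt7, Krt8) and a type I keratin (Krt18, Krt19), and Krt19 and Krt7 are used to tell ducts from other pancreatic epithelium. Mesothelium is the flat lining of the organ surface, and Msln encodes mesothelin, a surface protein of that lining which binds the mucin Muc16. Spp1 encodes osteopontin, a secreted phosphoprotein of ducts, bone and macrophages that binds integrins and Cd44. Muc1 encodes a mucin of the apical membrane of ducts and acini. Chd4 is the motor subunit of the nucleosome remodelling and deacetylase complex.

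The upstream sequences are shown for Cftr, which was lower in every Chd4KO library, and for Spp1 and Muc1, which spread most among the Chd4KO libraries. RefSeq (GRCm38.p6) windows of 250 bases before the transcript start were found for 6 of the 8 genes, and not for Krt19 and Msln. Capitals mark matches on either strand to any of 3 short motifs. The GC box was searched for as GGGCGG. The CCAAT box was searched for by the letters of its name. The TATA box was searched for as TATAAA.
Cftr, chr6:18170437-18170686, + strand: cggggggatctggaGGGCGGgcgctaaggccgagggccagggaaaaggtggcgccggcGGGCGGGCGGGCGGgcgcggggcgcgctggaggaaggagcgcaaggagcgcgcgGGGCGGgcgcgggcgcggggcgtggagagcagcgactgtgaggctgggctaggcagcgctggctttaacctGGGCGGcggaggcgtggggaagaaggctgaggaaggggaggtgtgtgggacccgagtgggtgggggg
Spp1, chr5:104434861-104435110, + strand: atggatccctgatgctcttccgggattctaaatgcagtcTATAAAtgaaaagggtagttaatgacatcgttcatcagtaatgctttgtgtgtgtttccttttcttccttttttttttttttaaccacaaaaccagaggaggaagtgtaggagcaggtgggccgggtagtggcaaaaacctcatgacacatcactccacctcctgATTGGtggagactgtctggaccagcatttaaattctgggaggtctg
Muc1, chr3:89228806-89229055, + strand: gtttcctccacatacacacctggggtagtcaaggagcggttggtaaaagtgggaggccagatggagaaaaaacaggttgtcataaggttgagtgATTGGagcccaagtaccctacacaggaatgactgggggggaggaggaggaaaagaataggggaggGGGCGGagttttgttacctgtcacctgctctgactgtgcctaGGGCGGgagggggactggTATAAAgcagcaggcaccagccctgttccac
The Cftr window had 30 CpG dinucleotides, a number reached by 5.94% of 32851 mouse promoter windows, against 3 each in those of Spp1 and Muc1 and a median of 6. It held 6 GC boxes, 3 of them overlapping each other, and no TATA box. The Spp1 window held 1 TATA box and 1 CCAAT box, and another Spp1 window that RefSeq places inside the gene held none of these motifs. The Muc1 window held 1 TATA box, 1 CCAAT box and 2 GC boxes. Of all windows, 12.4% held a TATA box, 32.7% a GC box and 33.8% a CCAAT box. These are matches of letters, and binding was not measured.

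Depth, recovered as whole reads from TPM and gene length, was 14.9 to 20.2 M reads in Chd4KO libraries and 16.4 to 41.01 M in Control libraries (exact permutation p = 0.0857, two-sided). Intervals and floors from reads cover counting error only. Chd4 had 5.604 ± 2.40 TPM in Chd4KO and 13.2 ± 2.08 TPM in Control (SD, n = 4 each), a change of -1.18 ± 0.29 (limma adjusted p = 0.0725). The limma fit covered 15189 genes and called 451 of them (2.97%) at 0.05 after Benjamini-Hochberg adjustment. Of the calls, 233 (1.53%) were higher and 218 (1.44%) were lower in Chd4KO. Under quantile normalisation the split was 466 higher and 289 lower. The unadjusted limma p was under 0.05 for 2460 of the 15189 genes. At these shares, the lack of a call among a few tested genes says little about them. Over all genes in the fit the median change was -0.25, and it was -0.02 under median-of-ratios scaling. Insulin transcripts took 32.4% to 62.0% of TPM in Chd4KO and 38.1% to 41.8% in Control, and the 62.0% belonged to Chd4KO replicate 4.

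Genes that define duct and mesothelium were largely near or at 0, so the 8 genes are called epithelial markers here and stand for no cell type. Among 25 other ductal markers, the adhesion protein gene Epcam averaged 277 ± 89.7 TPM in Chd4KO and 293 ± 45.9 TPM in Control (SD, n = 4 each). Sox9, the transcription factor that ducts keep, did not exceed 0.367 TPM in Chd4KO or 0.683 TPM in Control. Onecut1 and Mmp7 were listed at 0 in every library, and the secretin receptor gene Sctr was listed at 0 in every Chd4KO library and reached 0.210 TPM in Control. Of 18 other mesothelial markers, 16 stayed under 1 TPM in every library and 7 of these were listed at 0 throughout. Those 7 include Wt1, Upk1b and Muc16, the partner of mesothelin, while Upk3b did not exceed 0.0725 TPM. So Krt8, Krt18, Krt7 and Msln were present at 58.1 TPM or more in Control libraries in which Sox9, Krt19 and the defining mesothelial genes were near or at 0. The beta cell list summed to 396710 to 652852 TPM in Chd4KO and 430568 to 469915 TPM in Control.

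**Figure D1:**
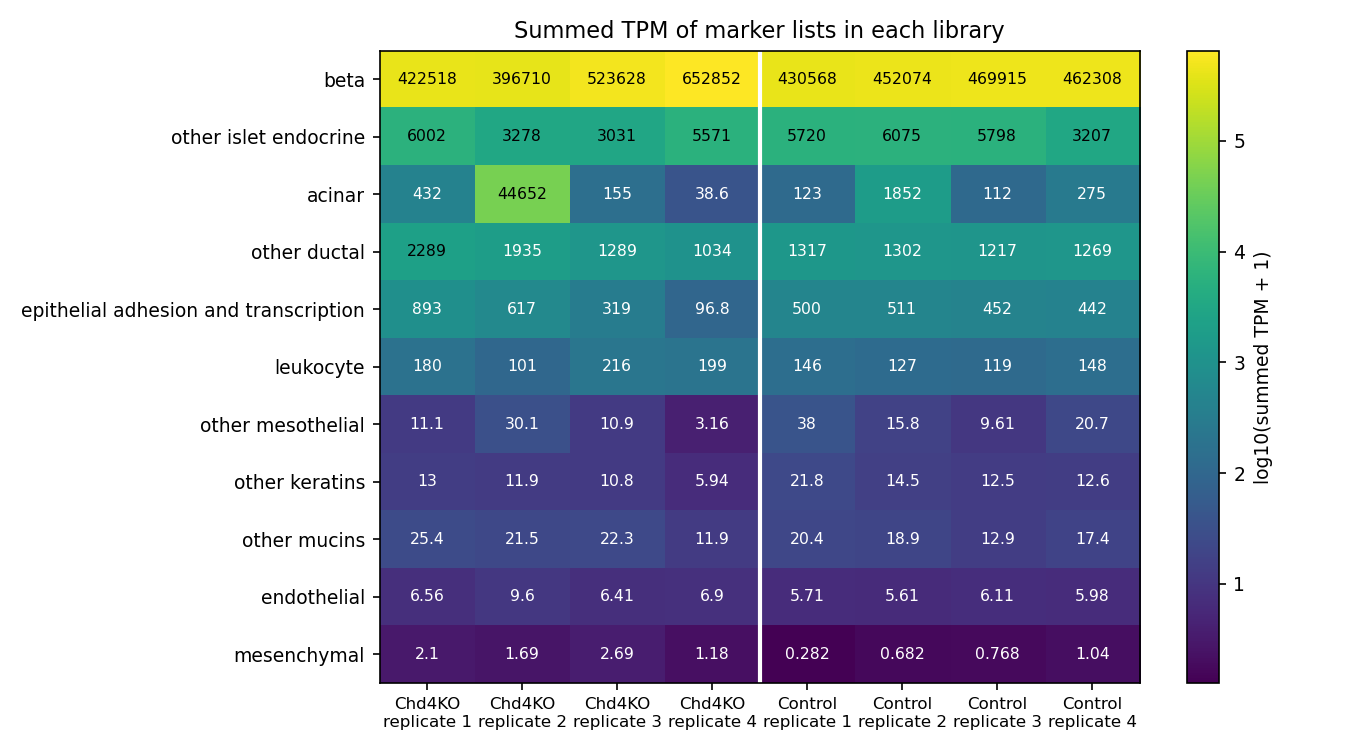
Summed TPM of 11 marker lists (rows) in each library (columns, 4 Chd4KO left of the white line and 4 Control right of it), with colour as log10(summed TPM + 1) and the sum printed in each cell. The lists named "other" leave out the 8 genes; acinar markers sum to 44652 TPM in Chd4KO replicate 2, and other mesothelial markers to at most 38.02 TPM in any library.

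The libraries also differed in acinar RNA. The 20 acinar markers summed to 38.6 to 44652 TPM in Chd4KO and to 112 to 1852 TPM in Control. Chd4KO replicate 2 and Control replicate 2 were the highest of their groups. None of the 17 acinar markers tested with limma passed, against 2.97% of all tested genes, and none had an unadjusted p under 0.05. Prss2, which encodes a trypsinogen, had 36.4, 7435, 0.340 and 0 TPM in Chd4KO and 0.520, 293, 2.82 and 26.4 TPM in Control replicates 1 to 4. Try4, a near relative whose reads may be split with those of Prss2, had 24.8, 6729, 0.692 and 0 TPM in Chd4KO and 0, 161.6, 1.70 and 17.1 TPM in Control replicates 1 to 4. The ductal list excluding the 8 genes summed to 1034 to 2289 TPM in Chd4KO and 1217 to 1317 TPM in Control. In bulk RNA, fewer cells of a type and less RNA per cell cannot be told apart.

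In Control the 8 genes fell into a high, a middle and a low tier. Krt8 and Krt18 averaged 762 and 655 TPM with overlapping ranges, and stood 59th and 84th of all genes by mean Control TPM. Msln and Krt7 followed at 96.5 and 75.8 TPM, again overlapping, and Spp1 stood apart below them at 21.1 TPM. Cftr, Muc1 and Krt19 were lowest at 4.04, 1.24 and 0.631 TPM, each overlapping the next. In Chd4KO, Krt18 and Krt8 again came first, but Msln lay below Spp1, and Cftr lay last, below Krt19 with no overlap.

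**Figure D2:**
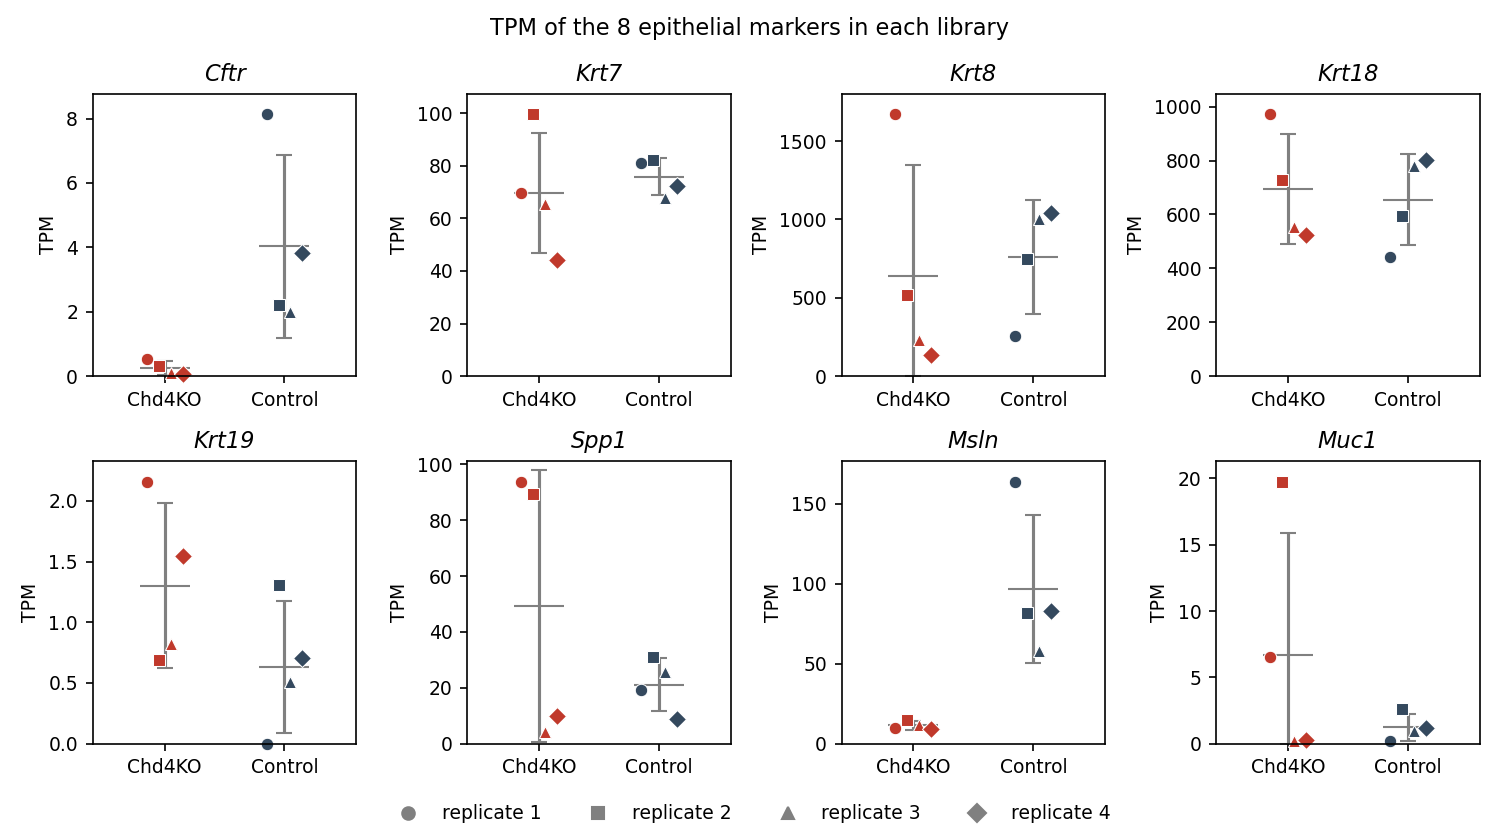
TPM of each of the 8 genes in every library, Chd4KO left and Control right, 1 panel per gene with its own axis from 0 and 1 symbol per replicate number. Grey lines give the mean and SD of 4 libraries, with the lower arm ending at 0 where it would cross it; Cftr and Msln separate the groups, while the other 6 genes overlap.

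Cftr and Msln were the pair that was lower in Chd4KO in every library, while the groups overlapped in the other 6 genes. Of the 7 genes that passed the filter of 1 TPM in at least 4 libraries, 2 were called lower, 0 higher and 5 were not called, against 2.97% of all tested genes called. The groups did not overlap in the same 2 genes, against 14.8% of all tested genes, or 11.3% lower and 3.54% higher in Chd4KO. Both counts rest on the contrast that chose the genes, and nothing is read from them. Of these 7 genes, 4 had a negative and 3 a positive change, and their median change was -0.17, beside -0.25 for all tested genes. Krt19 stayed below the filter.

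Cftr (ENSMUSG00000041301, mm10 chr6:18170687-18322768) had 0.533, 0.310, 0.107 and 0.0544 TPM in Chd4KO replicates 1 to 4, against 8.13, 2.20, 1.998 and 3.82 TPM in Control replicates 1 to 4. Every Chd4KO value lay below every Control value, and Control replicate 1 stood highest. The means were 0.251 ± 0.218 TPM in Chd4KO and 4.04 ± 2.85 TPM in Control (SD, n = 4 each), 16.1-fold lower in Chd4KO. The ratio was 25.7-fold without Chd4KO replicate 1 and 10.6-fold without Control replicate 1. On the log2(TPM + 1) scale the change was -1.87 ± 0.35 (SE), a scale that understates it at such levels. It rested on 5 to 30 recovered reads per Chd4KO library and 182 to 473 per Control library. Cftr passed the filter only through its Control values, so it could not be tested without any 1 of the Control libraries, and its call was lost without Chd4KO replicate 2 or 3. An antisense gene, Gm15592, shares 129 exonic bases with Cftr and was highest in Control replicate 1 at 1.98 TPM. These libraries do not mark strand, so reads over those bases cannot be assigned to either gene.

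Msln (ENSMUSG00000063011, mm10 chr17:25748613-25754378) had 9.95, 15.1, 11.6 and 9.15 TPM in Chd4KO replicates 1 to 4. In Control replicates 1 to 4 it had 163, 81.7, 58.1 and 82.7 TPM. The groups were far apart, and again Control replicate 1 was the highest and Control replicate 3 the lowest of Control, the same order of Control libraries as for Cftr. The order of Chd4KO libraries was not the same for Cftr and Msln. The means were 11.4 ± 2.62 TPM in Chd4KO and 96.5 ± 46.1 TPM in Control (SD, n = 4 each), 8.44-fold lower in Chd4KO. The change was -2.89 ± 0.31, and it lay between -3.09 and -2.60 over 19 alternative settings of the same values. Recovered reads numbered 221 to 332 in Chd4KO and 2089 to 4639 in Control, so counting error is small here.

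The keratins of simple epithelium were abundant in both groups and overlapped. Krt8, a type II keratin (ENSMUSG00000049382, mm10 chr15:101996698-102004482), had 1671, 519.6, 234 and 136 TPM in Chd4KO replicates 1 to 4, against 254, 750.04, 1003 and 1042 TPM in Control replicates 1 to 4. Chd4KO replicate 1 was the highest and Chd4KO replicate 4 the lowest of all 8 libraries, a 12.3-fold range within Chd4KO, against 4.09-fold within Control. The change was -0.71 with a 95% interval of -2.43 to 1.01, which leaves both directions possible. Without Chd4KO replicate 1 it was -1.39, and without Chd4KO replicates 2 and 4 it was -0.10.

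Krt18, its type I partner 23.7 kb away on chromosome 15 (ENSMUSG00000023043, mm10 chr15:102028180-102032027), had 971, 726, 554 and 525 TPM in Chd4KO replicates 1 to 4. In Control replicates 1 to 4 it had 442, 595, 779 and 802 TPM. The libraries ranked the same way for Krt8 and Krt18 in both groups, with Chd4KO replicate 1 and Control replicate 4 at the top and Chd4KO replicate 4 and Control replicate 1 at the bottom, but the range of Krt18 was narrower, 1.85-fold within Chd4KO and 1.82-fold within Control. The change was 0.08 with a 95% interval of -0.54 to 0.70, and it was -0.16 with array weights. Krt8 transcripts per Krt18 transcript came to 1.72, 0.715, 0.422 and 0.259 in Chd4KO and to 0.576, 1.26, 1.29 and 1.30 in Control replicates 1 to 4. The opposite-strand gene Gm36026 shares 101 exonic bases with Krt8, reached 159.6 TPM in Chd4KO replicate 1 and followed the order of Krt8 in both groups.

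Among other epithelial genes, singled out after their values were seen, the tight junction genes Cldn4 and Cldn7 and the epithelial transcription factor Elf3 had the same Chd4KO order as Krt8. Prom1 and Muc4 did not. The order is not particular to epithelial genes, since Chd4 itself had it, at 8.38, 6.18, 5.27 and 2.59 TPM in Chd4KO replicates 1 to 4. So did Cftr and the number of genes with at least 1 TPM, at 15923, 15734, 14788 and 12702. Cldn4 had 339, 68.4, 43.9 and 39.3 TPM in Chd4KO and 22.7, 40.1, 72.1 and 64.8 TPM in Control replicates 1 to 4. The Control orders of Cldn4, Cldn7 and Elf3 were not that of Krt8, although Control replicate 1 was the lowest for Krt8, Krt18, Cldn4, Cldn7 and Elf3 alike. The 24 genes of epithelial adhesion and transcription summed to 893, 617, 319 and 96.8 TPM in Chd4KO and to 441.8 to 511 TPM in Control, so Chd4KO replicate 4, with the largest insulin share, had the least.

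Krt7, a type II keratin (ENSMUSG00000023039, mm10 chr15:101411043-101430313), was the steadiest in Control. It had 69.7, 99.5, 65.5 and 44.2 TPM in Chd4KO replicates 1 to 4, against 81.1, 82.2, 67.7 and 72.3 TPM in Control replicates 1 to 4. The Control values lay inside the Chd4KO range, and the change was -0.17 with a 95% interval of -0.73 to 0.39. It was 0.11 under median-of-ratios scaling. Krt19, a type I keratin (ENSMUSG00000020911, mm10 chr11:100140810-100148665), had 2.16, 0.687, 0.822 and 1.55 TPM in Chd4KO and 0, 1.31, 0.506 and 0.709 TPM in Control replicates 1 to 4. It rested on 9 to 34 recovered reads in Chd4KO and 0 to 45 in Control. The listed 0 in Control replicate 1 allows up to 0.228 TPM, the level of 3 reads there. Without a filter its change was 0.51 with a 95% interval of -0.20 to 1.22.

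The gene next to Krt7 was higher in Chd4KO. Krt87, a type II hair keratin on the opposite strand whose span lies 725 bases from that of Krt7, had 16.6, 19.8, 8.15 and 9.23 TPM in Chd4KO replicates 1 to 4, against 0.434, 1.35, 0.786 and 0.687 TPM in Control replicates 1 to 4. All Chd4KO values exceeded all Control values. Its change was 2.93 ± 0.30 (limma adjusted p = 0.00136, 0.000273 to 0.00895 over 18 alternatives). It passed the filter through its Chd4KO values, since 3 of the Control values were under 1 TPM, and the adjusted p with no filter was 0.00652.

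**Figure D3:**
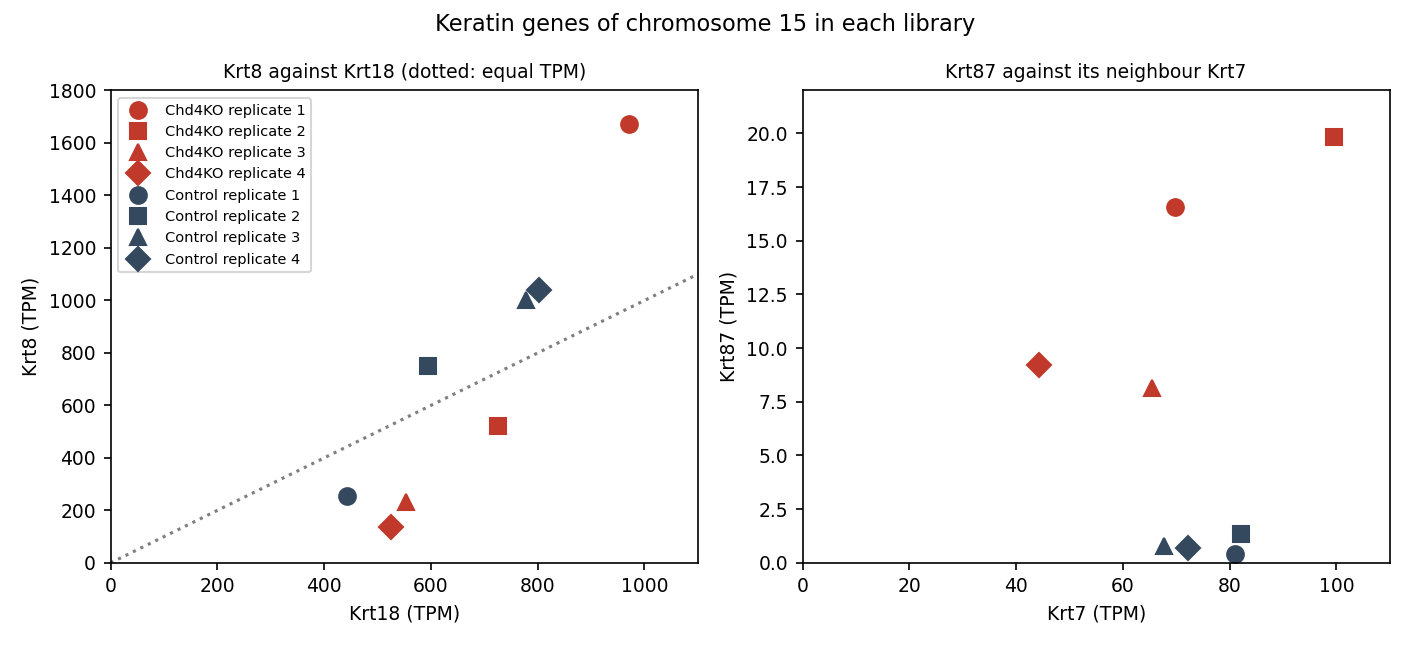
Left, TPM of Krt8 (vertical) against Krt18 (horizontal) in each library, with the dotted line at equal TPM; right, TPM of Krt87 against Krt7. Red symbols are Chd4KO and dark blue symbols Control, with 1 symbol shape per replicate number; Krt8 ranges from 136 to 1671 TPM, while Krt87 separates the groups at Krt7 levels that overlap.

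Around the 8 genes, the nearest protein-coding gene on each side gave 14 distinct neighbours outside the group, 9 of them tested. Of these 9 tested with limma, 1 was called higher (Krt87) and 0 lower, against 1.53% and 1.44% of all tested genes. Asz1 beside Cftr, Mepe beside Spp1, and Krt15 and Krt9 beside Krt19 were listed at 0 in every library, and Krt78 beside Krt8 did not exceed 0.161 TPM. Mslnl, a relative of Msln 283 bases away, had 0.715 ± 0.335 TPM in Chd4KO and 2.18 ± 0.811 TPM in Control (SD, n = 4 each, limma adjusted p = 0.116). Cttnbp2 on the other side of Cftr had 21.5 ± 12.6 TPM in Chd4KO and 33.6 ± 5.52 TPM in Control (adjusted p = 0.401). Narfl beside Msln, Mtx1 and Trim46 beside Muc1, Pkd2 beside Spp1, Eif4b beside Krt18 and Krt80 beside Krt7 did not pass either, with adjusted p from 0.257 to 0.743.

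Of the 8 genes, Spp1 and Muc1 had the widest fold ranges among Chd4KO libraries. Spp1 (ENSMUSG00000029304, mm10 chr5:104435118-104441050) had 93.7, 89.2, 4.29 and 9.78 TPM in Chd4KO replicates 1 to 4, against 19.2, 30.9, 25.6 and 8.67 TPM in Control replicates 1 to 4. Chd4KO replicates 1 and 2 exceeded every Control library, while Chd4KO replicate 3 lay below every Control library, a 21.9-fold range. The change was 0.39 with a 95% interval of -1.71 to 2.49. It was -0.22 without Chd4KO replicate 1 and to -0.20 without Chd4KO replicate 2, and was 1.16 without Chd4KO replicate 3. Among 13 genes listed as osteopontin receptors and relatives, 6 were tested with limma and 0 were called, against 2.97% of all tested genes. Of the 6, 1 had an unadjusted p under 0.05, against 2460 of all 15189 tested genes, and 1 was called with array weights. The most abundant, the integrin chains Itgb1 and Itgb5, had 76.2 ± 41.6 and 52.7 ± 14.1 TPM in Chd4KO, against 120.6 ± 20.6 and 48.8 ± 8.38 TPM in Control (SD, n = 4 each).

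Muc1 (ENSMUSG00000042784, mm10 chr3:89229057-89233381) had 6.53, 19.7, 0.177 and 0.288 TPM in Chd4KO replicates 1 to 4, against 0.181, 2.62, 0.981 and 1.175 TPM in Control replicates 1 to 4. Replicate 2 was the highest library of each group, as it was for the acinar list, and the range within Chd4KO was 111-fold. The change was 0.92 with a 95% interval of -1.06 to 2.90. Muc1 rested on 3 to 327 recovered reads in Chd4KO and 3 to 114 in Control, and it no longer passed the filter without any 1 of Chd4KO replicates 1 and 2 and Control replicates 2 and 4. The acinar list summed to 432, 44652, 155 and 38.6 TPM in Chd4KO and to 123, 1852, 112 and 275 TPM in Control replicates 1 to 4, and its part in the values of Muc1 was not tested. Tff2, a secreted trefoil peptide, named after its values were seen, that stayed below the filter, had 18.4 TPM in Chd4KO replicate 2 and 3.14 TPM in Control replicate 2, and did not exceed 0.236 TPM elsewhere. Of 10 other mucins, 2 were tested with limma and neither was called, against 2.97% of all tested genes. Neither had an unadjusted p under 0.05. Muc4, a membrane mucin, had 12.8 ± 4.03 TPM in Chd4KO and 11.04 ± 1.93 TPM in Control (SD, n = 4 each, limma adjusted p = 0.745), and Muc20 had 6.83 ± 1.81 TPM in Chd4KO and 6.10 ± 1.30 TPM in Control.

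Spp1 is also made by macrophages, so leukocyte markers were read beside it. The 12 leukocyte markers summed to 180, 101, 216 and 199 TPM in Chd4KO replicates 1 to 4 and to 119 to 148 TPM in Control. Of Chd4KO replicates 1 and 2, both high in Spp1, replicate 1 lay above every Control library in this sum and replicate 2 below. Ptprc, the common leukocyte antigen, averaged 0.0857 TPM in Chd4KO and 0.351 TPM in Control. Of 7 tested with limma, 2 rose, against 1.53% of all tested genes, and 0 were called with a minimum of 5 TPM or without Control replicate 2 or 4. Cd68, of macrophage lysosomes, had 4.91 ± 0.791 TPM in Chd4KO and 1.55 ± 0.425 TPM in Control (SD, n = 4 each, adjusted p = 0.0132), a call lost without Control replicate 2 or 4. Fcer1g, a receptor chain of myeloid cells, had 48.1 ± 16.97 TPM in Chd4KO and 15.8 ± 5.36 TPM in Control (adjusted p = 0.0482), and of the 8 fits that leave out 1 library it was called in that without Chd4KO replicate 2 and in no other. The part of leukocyte RNA in Spp1 was not tested.

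Of the 25 other ductal markers, 14 were tested with limma, 2 rose, 0 fell and 12 did not pass. Of all tested genes, 1.53% were called higher and 1.44% lower. Of the 14, 4 had an unadjusted p under 0.05, against 2460 of all 15189 tested genes. Over 19 alternatives 1 to 4 were called. Their median change was -0.04, beside -0.25 for all tested genes. Ambp, the precursor of the plasma protein bikunin, had 235, 129, 109 and 73.3 TPM in Chd4KO replicates 1 to 4 and 22.4, 19.4, 20.9 and 20.5 TPM in Control replicates 1 to 4. Every Chd4KO library lay above every Control library, and the change was 2.53 ± 0.32 (limma adjusted p = 0.00388, 9.74e-05 to 0.0247 over 19 alternatives). Pigr, the epithelial carrier of secreted immunoglobulin, had 63.9, 204.5, 47.5 and 15.4 TPM in Chd4KO and 7.79, 3.41, 7.99 and 5.54 TPM in Control replicates 1 to 4. Its change was 3.05 ± 0.66 (limma adjusted p = 0.0442), higher in each Chd4KO library than in any Control library. Pigr was called in 8 of 19 alternatives, and its call was lost without any 1 of the libraries other than Chd4KO replicate 4. 

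Tspan8 and Clu are named after their values were seen, as ductal markers without overlap between the groups that did not pass. Tspan8, a tetraspanin, had 17.4 ± 7.45 TPM in Chd4KO and 42.1 ± 10.4 TPM in Control (SD, n = 4 each, limma adjusted p = 0.0541). Clu, the secreted chaperone clusterin, had 186 ± 43.6 TPM in Chd4KO and 108 ± 18.2 TPM in Control (adjusted p = 0.113). Prom1, a membrane protein of apical protrusions, spread over 3.98 to 30.4 TPM in Chd4KO and 1.69 to 30.02 TPM in Control.

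Of 16 genes for ion and bicarbonate transport in ducts, which leave out Cftr, 9 were tested with limma and none was called, against 2.97% of all tested genes. Of the 9, 3 had an unadjusted p under 0.05, against 2460 of all 15189 tested genes. In 8 of 19 alternatives 1 or 2 of them were called, among them median-of-ratios and quantile scaling and the fit without Chd4KO replicate 4. The sodium pump beta subunit gene Atp1b1 averaged 175 ± 58.7 TPM in Chd4KO and 173 ± 20.7 TPM in Control (SD, n = 4 each). Among chloride-bicarbonate exchanger genes, singled out after their values were seen, Slc4a2 and Slc26a6 had lower means in Chd4KO and Slc26a3 a higher one. Slc4a2 had 9.47 ± 3.35 TPM in Chd4KO and 14.2 ± 1.78 TPM in Control (limma adjusted p = 0.330). Slc26a6 had 1.21 ± 0.618 TPM in Chd4KO and 2.69 ± 0.606 TPM in Control (limma adjusted p = 0.166), and Slc26a3 had 3.65 ± 1.86 TPM in Chd4KO and 1.14 ± 0.283 TPM in Control (adjusted p = 0.118).

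The remaining lists gave few calls. Of 18 other mesothelial markers, Gpm6a and Mslnl were tested with limma and neither was called, against 2.97% of all tested genes. Mslnl had an unadjusted p under 0.05, against 2460 of all 15189 tested genes. The membrane glycoprotein gene Gpm6a had 11.9 ± 10.8 TPM in Chd4KO and 18.2 ± 11.4 TPM in Control (SD, n = 4 each). Of 16 other keratins in a list that does not hold Krt87, 4 were tested and none was called, against 2.97% of all tested genes. Of the 4, 1 had an unadjusted p under 0.05, against 2460 of all 15189 tested genes. Krt80 had 3.20 ± 1.61 TPM in Chd4KO and 6.87 ± 3.92 TPM in Control, and Krt10 had 3.43 ± 0.586 TPM in Chd4KO and 4.42 ± 0.338 TPM in Control. Of the 24 genes of epithelial adhesion and transcription, 18 were tested. Of the 18, 3 had an unadjusted p under 0.05, against 2460 of all 15189 tested genes. Of the 18, 1 fell, against 1.44% of all tested genes. This was the membrane protease gene Prss8, with 4.42 ± 0.500 TPM in Chd4KO and 8.78 ± 1.43 TPM in Control (change -0.84 ± 0.18, limma adjusted p = 0.0400, lower in each Chd4KO library than in any Control library). Prss8 was called in 6 of 19 alternatives, in none of the 3 other scalings, and without 1 library only where Chd4KO replicate 4 was left out. Cdh1, of E-cadherin, had 136 ± 89.3 TPM in Chd4KO and 195 ± 27.4 TPM in Control, and Elf3 had 139 ± 131 TPM in Chd4KO and 79.0 ± 22.5 TPM in Control (adjusted p = 0.480 and 0.983).

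Of 11 beta cell markers, 6 had an unadjusted limma p under 0.05, against 2460 of all 15189 tested genes. Of the 11, 2 fell, against 1.44% of all tested genes. Mafa, a transcription factor of insulin genes, had 46.96 ± 23.3 TPM in Chd4KO and 166 ± 11.99 TPM in Control, and the glucose transporter gene Slc2a2 had 67.8 ± 24.8 TPM in Chd4KO and 170.3 ± 26.9 TPM in Control (SD, n = 4 each, limma adjusted p = 0.0229 and 0.0310). No beta cell marker was called when any 1 Control library was left out. Of 8 markers of other islet cells, 5 were tested and none was called, against 2.97% of all tested genes. None of the 5 had an unadjusted p under 0.05. Glucagon (Gcg) had 1792 ± 1507 TPM in Chd4KO and 1915 ± 537 TPM in Control, and pancreatic polypeptide (Ppy) had 1566 ± 877 TPM in Chd4KO and 2140 ± 752 TPM in Control. Of 8 endothelial markers, 2 were tested, Esam (limma adjusted p = 0.477) and Egfl7 (adjusted p = 0.0733), and neither was called, against 2.97% of all tested genes. Egfl7 had an unadjusted p under 0.05, against 2460 of all 15189 tested genes. In 5 of 19 alternatives 1 of the 2 was called. The list summed to at most 9.60 TPM in Chd4KO and 6.11 TPM in Control. None of 10 mesenchymal markers reached 1 TPM in any library.

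**Figure D4:**
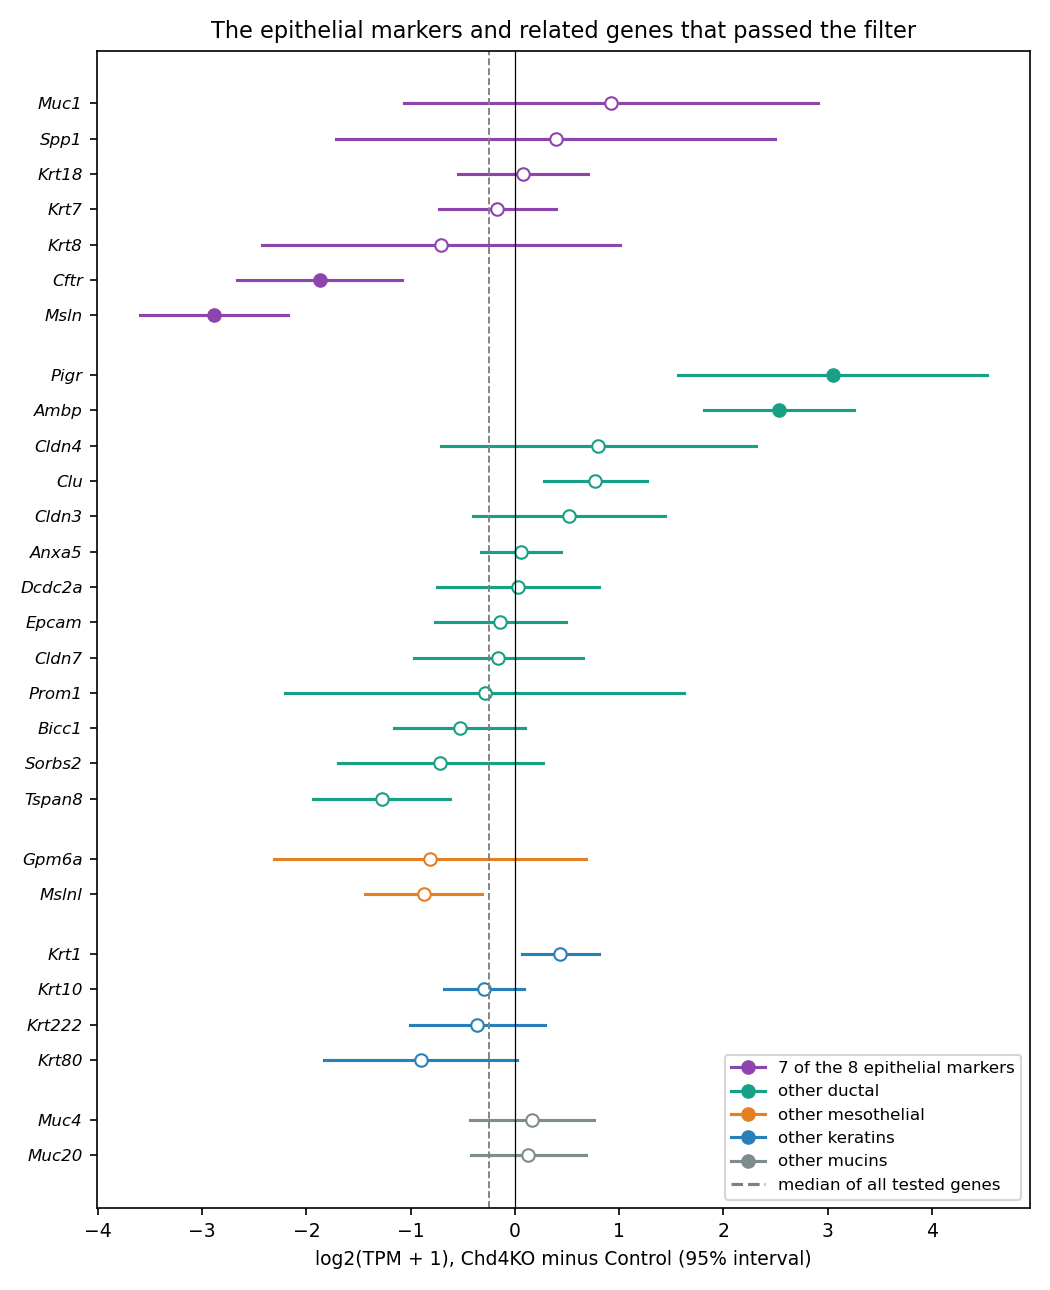
Change in log2(TPM + 1), Chd4KO minus Control, with its 95% interval from limma, for 7 of the 8 epithelial markers and for tested genes of 4 related lists. Filled symbols were called at an adjusted p under 0.05, the dashed line is the median of all tested genes at -0.25; Msln and Cftr lie at the low end and Pigr and Ambp at the high end.

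Likeness of pattern to Cftr and Msln over the 8 libraries was the root mean square difference in log2(TPM + 1) after each gene's mean was subtracted, among genes within 2-fold of the mean TPM. For Cftr, out of 4434 candidates with a median difference of 0.9999, the nearest were the predicted genes Gm36742 (0.17) and Gm5868 (0.17) and the coiled-coil gene Ccdc74a (0.29). Ccdc74a had 0.663, 1.42, 0.424 and 0.221 TPM in Chd4KO and 12.03, 4.43, 2.12 and 4.21 TPM in Control replicates 1 to 4. For Msln, out of 2661 candidates with a median difference of 1.42, the nearest were Srbd1 (0.63), Chn1os1 (0.69) and the autophagy gene Wipi1 (0.81). Srbd1, an RNA-binding protein gene, had 26.2, 15.9, 14.6 and 4.03 TPM in Chd4KO and 123, 86.7, 58.5 and 64.8 TPM in Control replicates 1 to 4. In each of these, as in Cftr and Msln, Control replicate 1 was the highest library. Because likeness used the contrast that chose Cftr and Msln, it is a description.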

How the data were processed

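RNA of flow-sorted beta cells was sequenced from 4 Chd4KO and 4 Control mice, after a SMART-Seq low-input kit and Nextera XT, which do not mark strand, per the labels' protocols. The authors deposited TPM per gene for each library, scaled to a total of 1 M. The tools named are HISAT2, HTSeq, Trimmomatic, FastQC and DESeq2, and the build is mm10, per the submitters' processing notes, with no versions. No annotation release was given in those notes. Symbols and lengths came from GENCODE M21 (99.5% of identifiers found). TPM times exon length was a whole multiple of 1 step for 98.5% to 98.7% of values above 0 (tolerance 0.05 reads), which gave reads and depth.

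The test was limma 3.58.1 (R 4.3.3) on log2(TPM + 1) for genes with at least 1 TPM in at least 4 libraries, two-sided, with Benjamini-Hochberg adjustment over all 15189, and a call at 0.05. It was checked on simulated data. P-values measure the spread between these libraries. Alternatives were another pseudocount, filter, scaling, variance model or weighting, voom on recovered reads, a replicate block and leaving out libraries. The limma fit without 2 libraries was added after seeing the data. The 8 genes, the 13 lists and the tests were chosen with earlier results of these data known. Named genes were the 8, their nearest coding neighbours, the 3 most like Cftr and Msln, and from each list up to 4 called genes and, with at most 1 called, the 2 with the highest TPM. Results of some list genes are not reported here. Python 3.11.15, scipy 1.17.1 and matplotlib 3.10.9 were also used.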

Additional observations from a re-analysis of the deposited data

Results flagged for a closer look

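Among 21 genes screened in each group of 4 libraries, 1 value stood far from the others of its group. Fcer1g was at 23.7 TPM in Control replicate 1, against 12.2 to 14.0 TPM in the other Control libraries and 23.8 to 63.2 TPM in Chd4KO. About 1 in 20 groups is picked out by chance, and none of the 8 epithelial markers was.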

How the results depend on the processing

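The count of genes called, 451, came to 220 with a minimum of 5 TPM, 724 with median-of-ratios scaling, 755 with quantile normalisation and 1364 with array weights. Leaving out 1 library gave 135 to 630 genes. With a replicate block it was 274, and Cd68, Fcer1g, Pigr, Prss8 and Slc2a2 were not called (limma adjusted p = 0.0555 to 0.125). Deviations of same-numbered libraries correlated at -0.02 to 0.43, so the numbers were not taken as pairs. Of the 8 epithelial markers, 2 were called, and 1 (Msln) with no filter, with a minimum of 5 TPM and, in a fit chosen after seeing the data, without Chd4KO replicates 2 and 4. Leaving out 1 library gave 1 to 2. Since these genes were chosen on this contrast, such calls are no sign of stability. Krt7, Krt8, Krt18 and Spp1 were called in none of 19, and Muc1 in none of the 13 that tested it. None of the genes called here changed sign. With 1 library left out, the depth difference was -16.98 to -8.78 M reads in Chd4KO minus Control. The exact permutation test of depth could not pass the threshold used for calls in any of these settings. Its smallest possible two-sided p was then 0.0571, the value without Control replicate 1, so its outcome says nothing about stability. Cftr and Krt19 in Chd4KO, at 5 to 34 reads, are limited by depth.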
